A study of Mus musculus with 12 samples.

Results

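The genotype by memantine interaction asks, gene by gene, whether the difference between Shank2-KO and WT mice was the same after memantine as after vehicle. It is the log2 difference KO-Mem minus WT-Mem (Mem-K/W) less the log2 difference KO-Veh minus WT-Veh (Veh-K/W), which equals the memantine response of KO mice (KO-M/V) less that of WT mice (WT-M/V). A positive value means that KO mice stood higher against WT mice under memantine than under vehicle. A mean normalized count of 10 or more over the mice was required, which left 17655 of the 19312 genes in the table.

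RNA from 12 male mice on a C57BL/6N background was sequenced, with 3 mice in each of 4 groups: WT with vehicle (WT-Veh), WT with memantine (WT-Mem), Shank2-KO with vehicle (KO-Veh) and Shank2-KO with memantine (KO-Mem). The KO mice lacked Shank2 exons 6 and 7 on both chromosomes and came from a single mouse line, and brains were not pooled. Memantine (20 mg/kg in 0.1% saccharin) or vehicle was given orally, as 2 doses daily between postnatal days 7 and 21, and all mice were sampled at postnatal day 25. The methods describe forebrain without the cerebellum and the brain stem beneath it, whereas the labels say whole brain.

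SHANK2 is a scaffold protein of excitatory synapses, where it links glutamate receptors to the postsynaptic density and the actin cytoskeleton. NMDA receptors are glutamate-gated channels that admit calcium and set in motion synaptic plasticity and activity-dependent transcription. Memantine is a low-affinity, uncompetitive NMDA receptor blocker that enters the open channel and leaves it quickly. A gene that responds to the drug in one genotype and not in the other, or in opposite directions, carries an interaction. A gene that differs between genotypes by the same factor with and without the drug carries none.

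Transcripts of Shank2 (chr7:144001928-144424494, GRCm38) followed the labels in every mouse. The normalized count, the deposited value that is scaled between mice, ranged from 7156 to 8548 in the 6 WT mice and from 2706 to 3178 in the 6 KO mice. Averaged over treatments, Shank2 was lower in KO mice by a log2 value of -1.45 (adjusted p = 6.0e-09, limma), and its interaction was 0.01 ± 0.11 (SE, 3 mice per group), with a 95% interval from -0.24 to 0.25. The table gives 1 value for the whole gene and does not separate the deleted exons from the rest.

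KO-Veh replicate 3 stood apart in genes of the cerebellum. The 11 cerebellar markers summed to 8346 in that mouse and to between 3745 and 4123 in the other 11. Gabra6, a GABA-A receptor subunit of cerebellar granule cells, was 254 in KO-Veh replicate 3 and from 0 to 12.9 elsewhere. Cbln3, also a granule cell gene, was 745 there and from 11.3 to 65.0 elsewhere. Relative depth, read from the spacing of low values, differed little between mice (0.894 to 1.15 of the mean). Results are therefore given with and without KO-Veh replicate 3 where they changed. They are given likewise for KO-Mem replicate 3, whose omission gave the highest counts of genes for the interaction, genotype and memantine.

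No gene passed the test for an interaction. Of 17655 genes, 0 were called at an adjusted p under 0.05 (0% called, limma over all 12 mice), and the smallest adjusted p was 0.947. At an unadjusted p under 0.05 there were 840 genes, 426 of them higher and 414 lower, which was 4.76% of the genes tested where an even spread of p gives 5%. At an unadjusted p under 0.001 there were 8 genes, or 0.0453%, where an even spread gives 0.1%. The number of calls was also 0 without KO-Veh replicate 3, with 935 genes at an unadjusted p under 0.05. Without KO-Mem replicate 3 it was 4, with 1756 genes. In this bulk tissue, fewer cells of a type and less RNA per cell cannot be told apart.

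The same fit of the same mice did call genes for genotype. Averaged over treatments, 1856 genes differed between KO and WT mice (10.5% called), 845 higher (4.79%) and 1011 lower (5.73%), with 29.4% of genes at an unadjusted p under 0.05, and 524 did so without KO-Veh replicate 3 and 3263 without KO-Mem replicate 3. For memantine averaged over genotypes 0 genes were called by limma, with 1532 at an unadjusted p under 0.05 (8.68%), and 119 were called without KO-Mem replicate 3. In the simple comparisons, 2 genes were called for Veh-K/W (0.0113%) and 636 for Mem-K/W (3.6%), with 13.3% and 23.7% of genes at an unadjusted p under 0.05. For KO-M/V and WT-M/V 0 were called, with 9.77% and 3.94% at that level. The difference between these pairs is the interaction itself, for which 0 genes were called. The share of a gene's variance over the 12 mice that lay along the interaction had a median of 4.05%, against 16.1% for genotype and 5.66% for memantine. The mean shares were 7.92%, 21.3% and 9.52% in the same order. A single degree of freedom of 11 would hold a mean of 9.09% if all were alike. The medians are not to be read against that mean, since such shares are skewed.

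**Figure D1:**
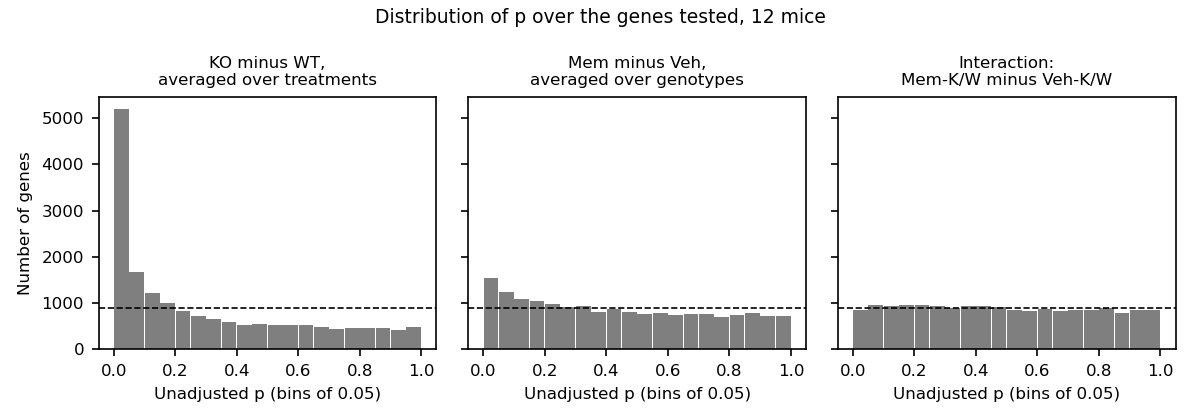
Unadjusted limma p-values of the 17655 genes in bins of 0.05 (x axis) against the number of genes in each bin (y axis), for genotype, memantine and their interaction. The dashed line marks the 883 genes per bin of an even spread. The first bin holds 5190 genes for genotype, 1532 for memantine and 840 for the interaction, whose other bins hold from 776 to 965.

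The size of interaction that these mice could have hidden depended on the level of the gene. The 95% interval lay wholly within -1 and 1 on the log2 scale for 13623 genes (77.2%), and within -0.58 and 0.58 for 10026 genes (56.8%). Among 6242 genes whose mean was 1000 or more, 99.4% had an interval within 1 log2 unit. Among the 3414 genes with a mean between 10 and 50 only 11.8% did. The median interval reached 0.36 to either side of its estimate, and the median absolute estimate was 0.13. For most well-expressed genes a difference in response of more than 2-fold was therefore outside the interval, whereas for weakly expressed genes it mostly was not.

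KO-Mem was the group that lay wholly apart from the others in the most genes. In 432 genes (2.45%) the 3 KO-Mem mice were all above the other 9 mice, and in 438 genes (2.48%) all below. WT-Veh mice were all above in 295 genes (1.67%) and all below in 228 (1.29%). WT-Mem mice were so in 75 (0.425%) and 93 (0.527%), and KO-Veh mice in 57 (0.323%) and 47 (0.266%). KO-Mem and WT-Veh mice, which differ in both genotype and treatment, held the higher counts. Of the 870 genes set apart in KO-Mem mice, 186 had an unadjusted interaction p under 0.05 in limma, against 4.76% of all genes. A group that lies apart from the other 3 raises the interaction by itself, so this count follows partly from how the genes were picked.

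Among the 840 genes at an unadjusted p under 0.05, the usual pattern was a crossing one. Of the 426 higher genes, 406 (95.3%) had a KO-M/V estimate above 0 and a WT-M/V estimate below 0. Of the 414 lower genes, 360 (87%) had the reverse. These shares follow partly from choosing genes by the difference of the 2 responses. The 2 directions had similar median sizes, 0.48 for higher and -0.46 for lower genes, and median GC contents of 51.4% and 49.1% against 49.6% for all genes tested.

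Among 12339 protein-coding genes with a mean of at least 100 and a value above 0 in every mouse, the 12 highest and 12 lowest by moderated t are described next. They were ranked by the interaction itself, so their values are a description, and each has an adjusted p of 0.947 in limma. In all 24, KO-M/V and WT-M/V pointed in opposite directions. The values of KO-Mem and KO-Veh mice did not overlap in 9 of the 12 higher and 10 of the 12 lower genes, against 14% of all genes. Those of WT-Mem and WT-Veh mice did not overlap in 7 and 5, against 9.27% of all genes. KO-Veh and WT-Veh mice did not overlap in 5 and 8, against 20.4%, and KO-Mem and WT-Mem mice in 9 and 7, against 26.1%.

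Col24a1 (chr3:145292472-145552011), which encodes a fibrillar collagen chain, headed the higher genes with an interaction of 0.88 ± 0.17 (SE). Its normalized counts, in the order of replicates 1 to 3 used throughout, were 317, 388 and 378 (WT-Veh), 264, 226 and 310 (WT-Mem), 307, 271 and 279 (KO-Veh) and 366, 397 and 398 (KO-Mem). All 3 KO-Mem mice were above all KO-Veh mice, and all 3 WT-Mem mice were below all WT-Veh mice.

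Nin, which encodes the centrosomal and microtubule-anchoring protein ninein, had an interaction of 0.45 ± 0.10. The counts were 2041, 1898 and 1882 (WT-Veh), 1731, 1562 and 1613 (WT-Mem), 1886, 1872 and 1811 (KO-Veh) and 2356, 1967 and 2116 (KO-Mem). Neither pair of treatment groups overlapped. The WT-M/V estimate was -0.25 and the KO-M/V estimate 0.21.

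Sgms2, a sphingomyelin synthase, had an interaction of 1.00 ± 0.24 at a low level. Its counts were 104, 137 and 151 (WT-Veh), 118, 96.2 and 94.3 (WT-Mem), 109, 100 and 98.7 (KO-Veh) and 190, 162 and 143 (KO-Mem). KO-Mem mice were above KO-Veh mice without overlap, while WT-Mem and WT-Veh mice overlapped.

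Nelfe, a subunit of the negative elongation factor that holds RNA polymerase II near promoters, had an interaction of 0.69 ± 0.18. Its counts were 387, 429 and 533 (WT-Veh), 318, 348 and 349 (WT-Mem), 320, 401 and 321 (KO-Veh) and 418, 400 and 458 (KO-Mem). WT-Mem mice lay below WT-Veh mice without overlap. KO-Mem and KO-Veh mice overlapped narrowly.

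Zc3h11a, a zinc finger protein of mRNA export, had an interaction of 0.61 ± 0.16, with counts of 1998, 2188 and 1940 (WT-Veh), 1721, 1574 and 1294 (WT-Mem), 1532, 1910 and 1502 (KO-Veh) and 1756, 1784 and 2050 (KO-Mem). Sema4a, a semaphorin guidance cue, had an interaction of 0.35 ± 0.09, with counts of 1647, 1670 and 1629 (WT-Veh), 1509, 1361 and 1478 (WT-Mem), 1398, 1275 and 1313 (KO-Veh) and 1434, 1502 and 1518 (KO-Mem). In both genes the WT-Veh mice had the highest mean. In Sema4a none of the treatment pairs overlapped. The other 6 higher genes were Miip, Spred3 (an inhibitor of Ras signalling), Trmt9b, Bahcc1, Bnip2 and Cpeb1 (a regulator of cytoplasmic polyadenylation), with interactions from 0.43 to 0.60. The Cpeb1 counts were 1231 to 1549 in KO-Veh and 1604 to 2292 in KO-Mem mice.

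Agtpbp1 (chr13:59445742-59585227), which removes glutamates from tubulin tails and is needed for Purkinje cell survival, headed the lower genes with an interaction of -0.40 ± 0.09. Its counts were 5640, 5561 and 4982 (WT-Veh), 6156, 6270 and 5991 (WT-Mem), 5902, 6189 and 6324 (KO-Veh) and 5006, 5171 and 5690 (KO-Mem). WT-Mem mice were all above WT-Veh mice and KO-Mem mice all below KO-Veh mice. Its estimate was -0.38 without KO-Veh replicate 3, the mouse with the higher cerebellar markers.

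Rimklb, a ligase that joins glutamate to N-acetylaspartate, had an interaction of -0.62 ± 0.15. Its counts were 1111, 1235 and 891 (WT-Veh), 1427, 1357 and 1139 (WT-Mem), 1516, 1495 and 1527 (KO-Veh) and 1208, 1197 and 1197 (KO-Mem). The KO groups were tight and did not overlap. The WT groups did overlap.

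Nod1, a cytosolic receptor for bacterial peptidoglycan, had an interaction of -0.67 ± 0.16. The counts were 303, 332 and 326 (WT-Veh), 347, 325 and 415 (WT-Mem), 352, 342 and 360 (KO-Veh) and 261, 215 and 271 (KO-Mem). The KO-Mem mice were below all other mice.

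Dcbld2, a neuropilin-like membrane protein, had an interaction of -0.36 ± 0.09, and its counts were 1152, 1227 and 1166 (WT-Veh), 1422, 1499 and 1376 (WT-Mem), 1441, 1425 and 1453 (KO-Veh) and 1426, 1317 and 1344 (KO-Mem). Here the WT-Veh mice stood apart, below the other 9 mice. Adgre1, which encodes the macrophage and microglial surface receptor F4/80, had the largest absolute estimate of the 24 genes, -1.11 ± 0.28. Its counts were 98.4, 133 and 111 (WT-Veh), 155, 141 and 120 (WT-Mem), 233, 171 and 187 (KO-Veh) and 82.2, 111 and 144 (KO-Mem). KO-Veh mice lay above all other mice.

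Mtrr, which reactivates methionine synthase, had an interaction of -0.66 ± 0.17. The counts were 334, 393 and 345 (WT-Veh), 424, 450 and 361 (WT-Mem), 359, 350 and 441 (KO-Veh) and 270, 260 and 305 (KO-Mem), and the KO-Mem mice were below all others. The other 6 lower genes were Fam78a, Galnt14, Elfn1 (a postsynaptic organizer of synapses onto interneurons), Gpcpd1, Lims2 and Ermard, with interactions from -0.83 to -0.36. Elfn1 counts were 1494 to 1655 in KO-Veh and 1060 to 1377 in KO-Mem mice, without overlap.

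**Figure D2:**
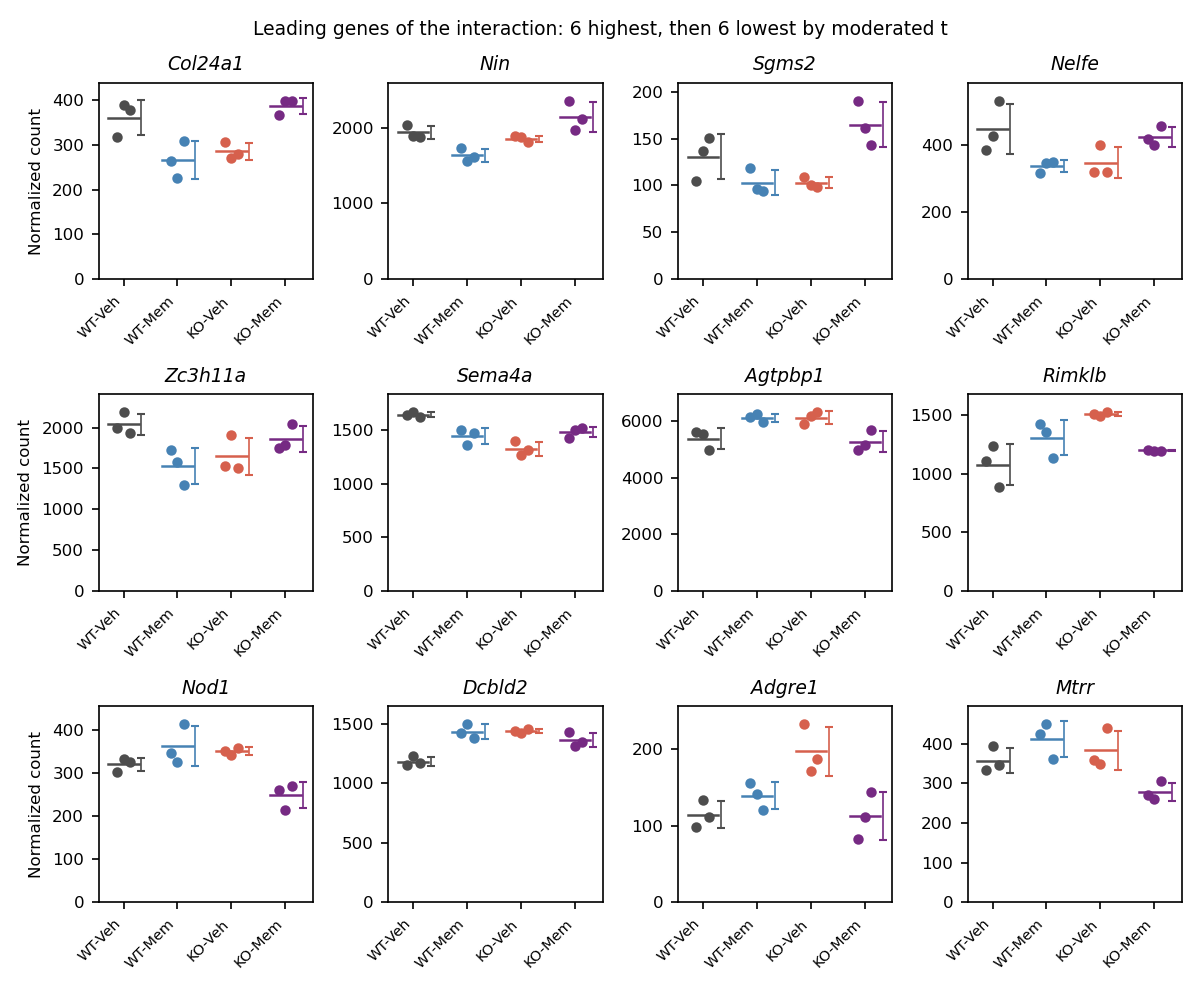
Normalized counts (y axis, starting at 0) of the 6 highest and 6 lowest genes of the interaction in the 4 groups (x axis). Each point is a mouse, the horizontal line is the mean and the bar beside it the SD of 3 mice. In the higher genes KO-Mem means exceed KO-Veh means while WT-Mem means lie under WT-Veh means, as for Col24a1 (0.44 and -0.44 on the log2 scale), and in the lower genes the order is the reverse.

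The receptor that memantine blocks showed no interaction in its own transcripts beyond the spread between mice. Of the 7 NMDA receptor subunits, 0 had an unadjusted p under 0.05 in limma, and their median interaction was -0.07 where that of all genes was -0.005. Grin1, the obligatory subunit, had an interaction of 0.06 ± 0.08, with a 95% interval from -0.12 to 0.23. Grin2a and Grin2b, the main forebrain partners of Grin1, had 0.02 ± 0.15 and -0.002 ± 0.19. Grin2d, found in interneurons, had -0.18 ± 0.10 and Grin3a -0.07 ± 0.10. Grin3b was too weakly expressed to bound, with counts of 6.53 to 39.8 and an interval from -2.02 to 0.76.

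Grin2c, the subunit of cerebellar granule cells and some glia, had an interaction of -0.09 ± 0.12 and was the only subunit called for genotype (log2 difference -0.23, adjusted p = 0.025, limma). Its counts were 1640 to 1864 in the 6 WT mice and 1219 to 1634 in the 6 KO mice, so the genotypes did not overlap. Over 23 fits, among them those with a mouse left out, the Grin2c interaction ran from -0.17 to -0.003. In 0 of these fits was its unadjusted p under 0.05 in limma. The 16 AMPA receptor subunits and auxiliary proteins held 0 genes with an unadjusted p under 0.05, with a median of 0.03, and the 17 postsynaptic scaffolds held 0 with a median of -0.01. All 33 genes of these last 2 lists had intervals within 1 log2 unit.

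In kainate and metabotropic glutamate receptors 2 of 14 genes had an unadjusted p under 0.05, both lower (14.3%, against 2.34% lower among all genes), and all 14 estimates were below 0 with a median of -0.06. Grm2, a presynaptic receptor that lowers glutamate release, had an interaction of -0.46 ± 0.14 (unadjusted p = 0.00605, adjusted p = 0.947, limma). Its counts were 1925, 1669 and 1471 (WT-Veh), 2173, 2187 and 1790 (WT-Mem), 1682, 1709 and 1862 (KO-Veh) and 1446, 1599 and 1605 (KO-Mem). KO-Mem mice were below KO-Veh mice, and the WT groups overlapped. Grm4, a receptor of granule cell terminals, had -0.36 ± 0.15, and -0.27 without KO-Veh replicate 3, in which its count of 2270 was the highest of all mice.

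The 16 GABA-A receptor subunits and inhibitory scaffolds all had estimates below 0 (median -0.08), of which 0 reached an unadjusted p under 0.05 in limma. Gephyrin (Gphn), the inhibitory postsynaptic scaffold, had -0.23 ± 0.13. Genes of a list share the same 12 mice, and 1 mouse can shift all of them together. WT-Veh replicate 3 had the lowest level over this list, a mean log2 deviation of -0.16, while the other 11 mice lay between -0.05 and 0.08. Without this mouse the list median was still below 0, at -0.05. Over all fits the median ran from -0.13 (without WT-Mem replicate 3) to that value.

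Immediate early genes, which neurons transcribe within minutes of activity and calcium entry, varied widely inside groups. Of 20 genes 19 had estimates below 0, with a median of -0.21, and 0 had an unadjusted p under 0.05 in limma. Arc, a synaptic cytoskeletal protein, had counts of 2598, 6948 and 11896 (WT-Veh), 9858, 6779 and 7416 (WT-Mem), 6212, 4195 and 1403 (KO-Veh) and 1310, 2528 and 4874 (KO-Mem). The spread within WT-Veh and within KO-Veh mice exceeded 4-fold, and its interaction was -0.79 ± 0.81. Fos had -0.25 ± 0.49, Egr1 -0.27 ± 0.35 and Npas4 0.14 ± 0.54. The interval lay within 1 log2 unit for 10 of the 20 genes only, so a 2-fold interaction was not outside the intervals of the others. Left out in turn, single mice moved the median between -0.49 (without KO-Veh replicate 3) and -0.05 (without WT-Veh replicate 1).

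Among chromatin regulators more estimates lay above 0 than below. Of 46 remodelers, acetylases and deacetylases, 3 had an unadjusted p under 0.05 and all 3 were higher (6.52%, against 2.41% higher among all genes). Cbx7 and Ldb1 among these 3, and Actr8 of the list, are genes that the study picked out in these mice. The count is therefore not independent of its comparisons. The median was 0.08, and 0.02 without WT-Mem replicate 3, and 31 of 46 estimates were above 0. Chd2, a remodeler linked to epilepsy, had an interaction of 0.43 ± 0.12 (unadjusted p = 0.00389, adjusted p = 0.947, limma), with counts of 2554, 2550 and 2483 (WT-Veh), 2403, 2241 and 2242 (WT-Mem), 2755, 2277 and 2362 (KO-Veh) and 3377, 3001 and 2652 (KO-Mem). WT-Mem mice lay below WT-Veh mice without overlap, whereas KO-Mem replicate 3 lay inside the range of KO-Veh mice.

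Cbx7, a Polycomb protein, had 0.37 ± 0.13, and Ldb1, an adaptor that bridges enhancers and promoters, had 0.32 ± 0.12. Ldb1 counts were 3217 to 3597 (KO-Veh) and 4742, 4193 and 3602 (KO-Mem), so the third KO-Mem mouse was barely above the highest KO-Veh mouse. Without KO-Mem replicate 3, 1756 of all 17655 genes had an unadjusted p under 0.05 in either direction, against 840 with all mice. Of the 46 genes, 7 were then higher at that level, again with 0 called. The 35 histone methylation enzymes held 0 such genes with all mice (median 0.07), and 4 without KO-Mem replicate 3. Of 61 splicing factors, 3 were higher (Luc7l3, Prpf6 and Srsf11) and 1 lower (Clk1, a kinase of SR proteins) at an unadjusted p under 0.05, each with an absolute estimate of at most 0.24.

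Cholesterol synthesis genes gave the highest share of small p-values among the lists other than the genes that the study names in its text. The cholesterol list was chosen with earlier results of these data known. The study reports steroid and lipid metabolism terms for its Mem-K/W genes, so the list is not independent of its comparisons. Of 22 genes, 6 had an unadjusted p under 0.05, all lower (27.3%, against 2.34% lower among all genes), 19 estimates were below 0, and the median was -0.27. None was called. In the same fit limma called 13 of the 22 lower in KO mice averaged over treatments, against 5.73% of all genes. Its median Veh-K/W was -0.14 and its median Mem-K/W -0.42.

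Hmgcs1, an early synthase of the pathway, had counts of 10455, 11222 and 9581 (WT-Veh), 10503, 9962 and 10387 (WT-Mem), 9514, 9520 and 7902 (KO-Veh) and 5610, 6187 and 8682 (KO-Mem). KO-Mem replicates 1 and 2 were below all other mice, and KO-Mem replicate 3 lay inside the range of KO-Veh mice. Its interaction was -0.40 ± 0.18 (unadjusted p = 0.0412, adjusted p = 0.947, limma).

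Cyp51, the lanosterol demethylase, had an interaction of -0.42 ± 0.16, with counts of 2552, 2612 and 2297 (WT-Veh), 2292, 2386 and 2554 (WT-Mem), 2382, 2482 and 2099 (KO-Veh) and 1451, 1561 and 2100 (KO-Mem). Here too the first pair of KO-Mem mice lay below all others and the third reached the lowest KO-Veh mouse. Insig1, which retains the sterol sensor in the endoplasmic reticulum, had -0.23 ± 0.10. Lss, Hsd17b7 and Tm7sf2 were the 3 genes with estimates above 0, from 0.002 to 0.12.

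Genes of this pathway are known targets of SREBP2, which binds sterol regulatory elements, often beside CCAAT boxes bound by NF-Y. The 250 bases before the RefSeq start (GRCm38.p6) are shown for the 3 of the 6 genes with an unadjusted p under 0.05 that have an entry in the promoter table, so that these letters can be seen. Capitals mark matches on either strand to CACCCCAC, a sterol regulatory element core, and to CCAAT, and the letters run 5′ to 3′ on the strand of the gene. The 2 motifs share no overlapping matches here. The RefSeq start of Hmgcs1 does not match the GENCODE start of the gene, which lies farther downstream.
Hmgcs1, chr13:119690101-119690350, plus strand: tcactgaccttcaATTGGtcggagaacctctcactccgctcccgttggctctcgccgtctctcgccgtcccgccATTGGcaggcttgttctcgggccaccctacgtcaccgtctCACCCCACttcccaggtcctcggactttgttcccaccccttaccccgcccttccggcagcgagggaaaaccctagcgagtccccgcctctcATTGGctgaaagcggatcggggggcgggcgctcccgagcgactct
Cyp51, chr5:4104698-4104947, minus strand: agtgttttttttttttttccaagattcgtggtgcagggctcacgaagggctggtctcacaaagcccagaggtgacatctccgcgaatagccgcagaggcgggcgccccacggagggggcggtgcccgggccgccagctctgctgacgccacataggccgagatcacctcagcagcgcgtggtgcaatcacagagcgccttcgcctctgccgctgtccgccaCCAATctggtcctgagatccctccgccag
Insig1, chr5:28071162-28071411, plus strand: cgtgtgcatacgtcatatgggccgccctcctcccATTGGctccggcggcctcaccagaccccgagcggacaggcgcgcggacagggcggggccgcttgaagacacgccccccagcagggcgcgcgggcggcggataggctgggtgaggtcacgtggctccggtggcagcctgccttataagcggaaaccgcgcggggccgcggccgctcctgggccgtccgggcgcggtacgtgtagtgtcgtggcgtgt
Of the 22 genes 16 had an entry. CACCCCAC was found in 1 of them, Hmgcs1, and in 2.58% of all 32851 promoter windows of this length. CCAAT was found in all 16, and in 33.8% of all windows. A gene was counted if any of its windows matched, whereas the shares are over single windows, so these figures are not in like units. A match describes the letters of the window, not binding.

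Over the 22 genes the mean log2 deviation from each gene's own mean over the 12 mice was 0.14 to 0.19 in WT-Veh, 0.06 to 0.14 in WT-Mem and -0.09 to 0.09 in KO-Veh mice. It was -0.48, -0.36 and -0.02 in KO-Mem replicates 1, 2 and 3. The third KO-Mem mouse thus fell within the range of KO-Veh mice and the other 2 KO-Mem mice below it. At an unadjusted p under 0.05 there were 15 lower genes of 22 without KO-Mem replicate 3, 10 without KO-Veh replicate 3, and from 3 to 15 when each mouse was left out in turn. Over all 17655 genes, in either direction, the numbers were 1756, 935 and from 594 to 1756. The median of the 22 genes was below 0 in each of these fits (-0.40 to -0.17).

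Oligodendrocyte and myelin genes also had their lowest levels in KO-Mem mice. Myelin is rich in cholesterol, and oligodendrocytes are among the main sites of its synthesis in the young brain. The 20 genes, none of which was at 0 in any mouse, summed to 395281 to 473923 across WT-Veh mice and 351882 to 408069 across WT-Mem mice. The sums were 343674 to 363710 for KO-Veh and 280535 to 332447 for KO-Mem. KO-Mem mice were below all others. Of the 20 genes 12 were called lower for genotype, against 5.73% of all genes, while 2 were lower at an unadjusted interaction p under 0.05 (10%, against 2.34%), and their median interaction was -0.08. The part of oligodendrocyte content in the cholesterol values was not tested.

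Ugt8a, the enzyme that makes the myelin lipid galactosylceramide, had counts of 4759, 5138 and 4663 (WT-Veh), 4829, 4706 and 4643 (WT-Mem), 3806, 4037 and 3820 (KO-Veh) and 1701, 2286 and 3483 (KO-Mem). All KO-Mem mice were below all KO-Veh mice, which were below all WT mice. Its interaction was -0.67 ± 0.24 (unadjusted p = 0.0139, adjusted p = 0.947, limma), and -0.94 without KO-Mem replicate 3, where it was called (adjusted p = 0.0382). Fa2h, which hydroxylates the fatty acids of the same lipids, had -0.31 ± 0.14.

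Like Ugt8a, Phyhd1 and Matn1 were called without KO-Mem replicate 3, and only in that fit. Phyhd1, a dioxygenase related to phytanoyl-CoA hydroxylase, had counts of 250 to 289 (WT-Veh), 256 to 279 (WT-Mem), 275 to 312 (KO-Veh) and 646, 573 and 329 (KO-Mem). Matn1, a cartilage matrix protein, had 15.3 to 20.9 in the 9 mice of the other groups, and 128, 109 and 19.9 in KO-Mem mice. In both genes KO-Mem replicates 1 and 2 stood far above every other mouse and KO-Mem replicate 3 near them. With all mice the interactions were 0.75 ± 0.26 and 2.06 ± 0.71, neither called (adjusted p = 0.947, limma).

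Chaperone genes, of which 21 of 26 were called lower for genotype by limma (5.73% of all genes were), showed 0 with an unadjusted interaction p under 0.05. Their median Veh-K/W was -0.35 and their median Mem-K/W -0.31, with a median interaction of -0.04. Without KO-Mem replicate 3 there were 6 lower genes and a median of -0.16, and without KO-Mem replicate 1 there were 0 and a median of 0.06. Over all 17655 genes, 1756 and 594 were at that level in these fits, in either direction.

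Of 15 brain proteoglycan and perineuronal net genes, 4 were lower at an unadjusted p under 0.05 (26.7%, against 2.34% lower among all genes), although 8 of the 15 estimates were above 0. The median was 0.02 with all mice, from -0.09 to 0.002 with a mouse left out, and -0.11 with array weights. Tnc, which encodes the matrix glycoprotein tenascin C, had an interaction of -0.58 ± 0.22, with counts of 350 to 458 in the 6 WT mice, 401, 412 and 432 (KO-Veh) and 206, 295 and 340 (KO-Mem). The KO-Mem mice were below all others. Ncan, the nervous system proteoglycan neurocan, had -0.26 ± 0.11, and Pcsk6, a protease that activates growth factors, -0.36 ± 0.13. The fourth was Has3, a hyaluronan synthase, with -0.62. Tnc and Pcsk6 are among the genes that the study picked out in these mice, so they are not independent of its comparisons.

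Of 48 collagen and basement membrane genes, 2 had an unadjusted p under 0.05, Col9a3 and Col8a1, both lower (4.17%, against 4.76% of all genes in either direction), and the median was -0.03. Col9a3 counts were 938, 954 and 1060 (WT-Veh), 899, 934 and 972 (WT-Mem), 855, 898 and 744 (KO-Veh) and 545, 540 and 630 (KO-Mem). WT and KO mice did not overlap, and among KO mice those given memantine were lower. Its interaction was -0.47 ± 0.13 and its genotype difference -0.48 (adjusted p = 0.0042, limma). Col9a3 is among the genes that the study picked out in these mice, so it is not independent of its comparisons.

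Respiratory chain genes are encoded in the nucleus and in mitochondrial DNA. Of the 81 nuclear genes 3 were lower at an unadjusted p under 0.05 (Cox7b, Cox5a and Ndufs8, from -0.33 to -0.28), or 3.7% against 2.34% of all genes, with a median of -0.06 that was 0.003 without WT-Mem replicate 3. Of the 13 mitochondrial genes 1 was higher, mt-Nd1 at 0.36 ± 0.13, with a median of 0.17 that was 0.02 with quantile normalization and 0.06 without WT-Veh replicate 3. The mt-Nd1 count in WT-Veh replicate 3 was 108490, against 65547 to 83948 in the other 11 mice, and without this mouse the estimate was 0.23. Cytosolic ribosomal protein genes held 0 of 80 and mitochondrial ones 1 of 78, Mrps25 at -0.53 ± 0.16.

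**Figure D3:**
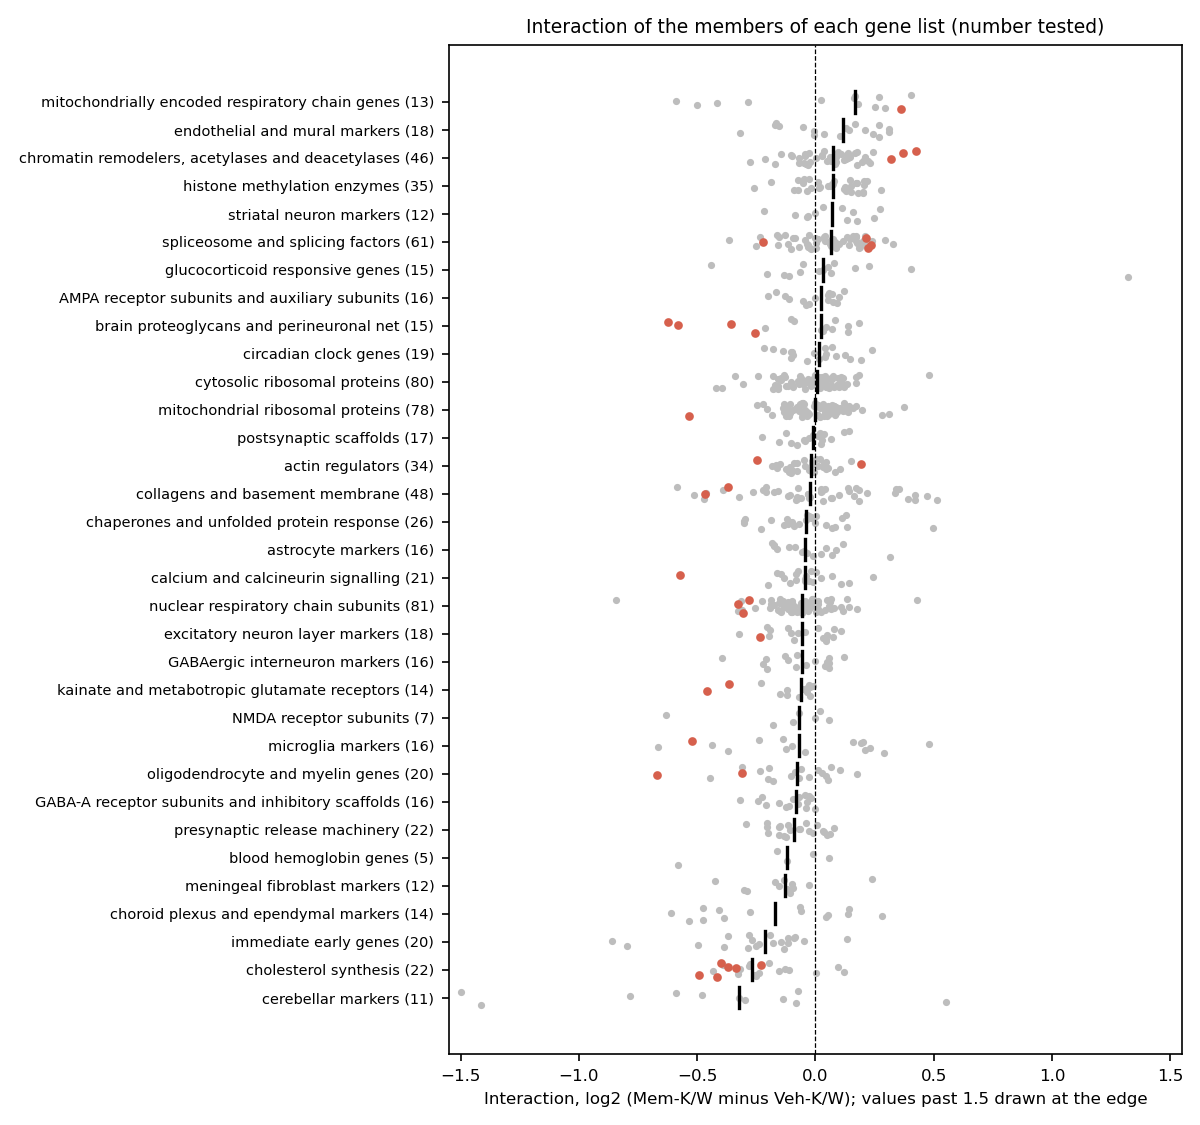
Interaction of each member (x axis, log2 scale) of 33 gene lists (y axis, number tested in brackets). Grey points have an unadjusted limma p of at least 0.05, red points under 0.05, and the black bar is the list median. The cholesterol genes lie mostly left of 0 (median -0.27), as do the cerebellar markers (median -0.32, and 0.03 without KO-Veh replicate 3), and 1 value beyond 1.5 is drawn at the edge.

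**Figure D4:**
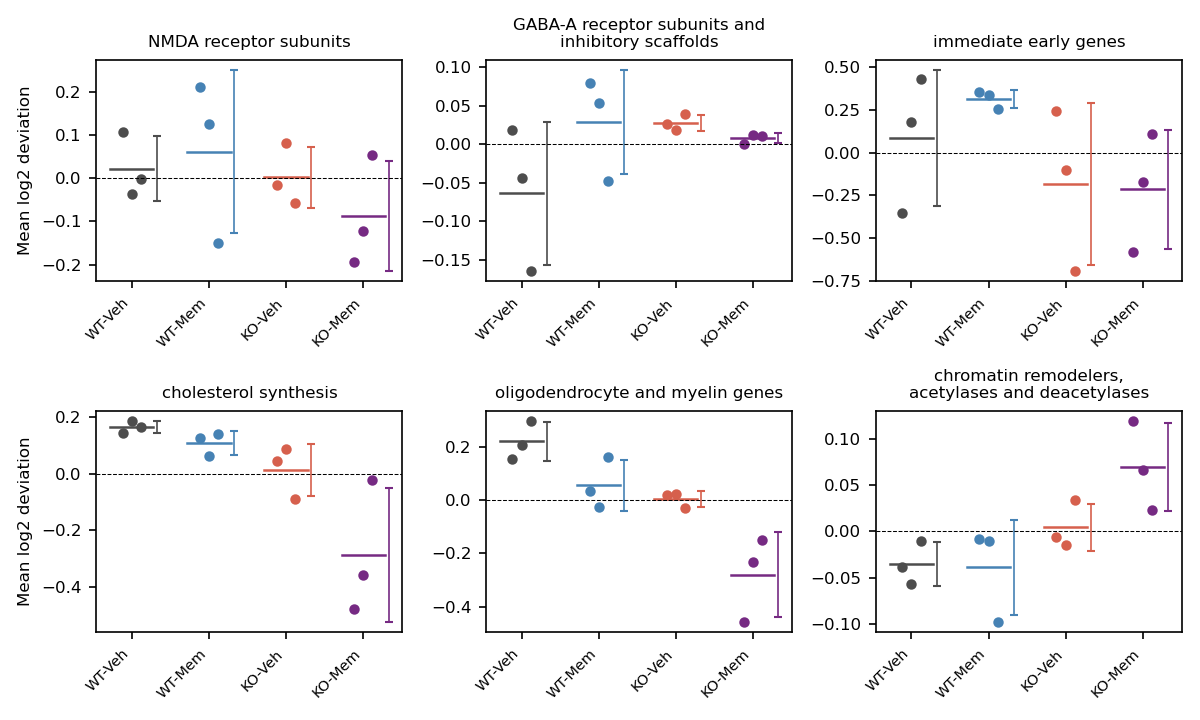
Mean log2 deviation of a list's genes from their own mean over the 12 mice (y axis, scale differs between panels) in each mouse (points) of the 4 groups (x axis), with the mean and SD of 3 mice. The cholesterol and oligodendrocyte lists are lowest in KO-Mem mice, with 2 cholesterol values at -0.48 and -0.36 and the third at -0.02, and immediate early genes run from -0.69 to 0.25 inside KO-Veh mice.

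For the genes that differ by genotype, the interaction says whether memantine changed that difference. The 845 genes called higher in KO mice had a median Veh-K/W of 0.27 and a median Mem-K/W of 0.39, and a median interaction of 0.11. The 1011 genes called lower had medians of -0.28, -0.38 and -0.11. The genotype and interaction contrasts are orthogonal in this balanced design, so the choice of genes does not fix the sign. Estimates had the sign of the genotype difference in 622 of 845 and 763 of 1011 genes. Genes share mice, so each mouse was left out and the genes were chosen again. The median then ranged from 0.03 to 0.20 for higher and from -0.20 to -0.04 for lower genes. With a mouse left out the design is not balanced and the contrasts are not orthogonal. The choice of genes can then itself shift these medians. The medians farthest from 0 came without KO-Mem replicate 3, and without KO-Veh replicate 3 they were 0.17 and -0.17. The medians nearest to 0 came without WT-Veh replicate 1 (0.03 and -0.04), KO-Veh replicate 2 (0.04 and -0.04) and KO-Mem replicate 1 (0.06 and -0.05).

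Singly, few of these genes had a small interaction p. Among the 845 higher genes, 53 were higher and 8 lower at an unadjusted p under 0.05 in limma (7.22% in all). Among the 1011 lower genes 67 were lower and 7 higher (7.32%). The interval lay within 1 log2 unit for 84.5% of the 1856 genes.

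**Figure D5:**
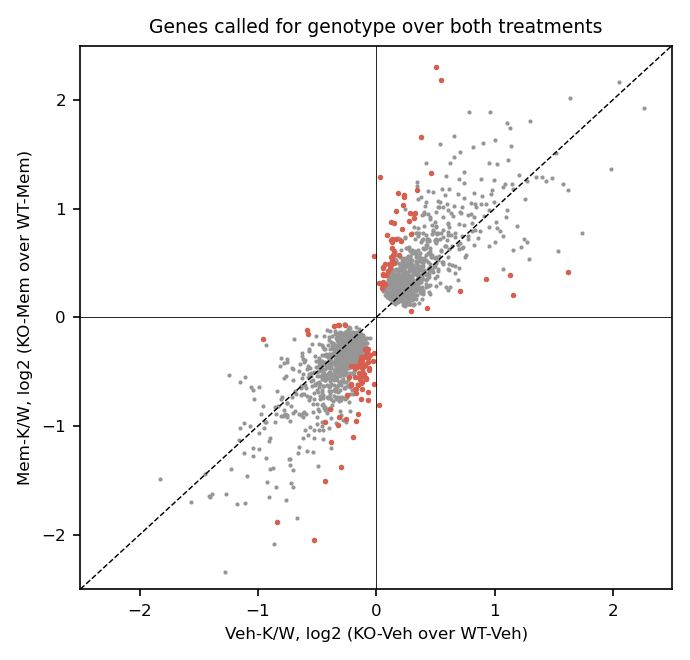
Veh-K/W (x axis) against Mem-K/W (y axis), both log2, for the 1856 genes called for genotype averaged over treatments. The dashed line marks equal differences, red points are the 135 genes with an unadjusted interaction p under 0.05, and 8 genes lie outside the axes. Points lie somewhat farther from 0 on the y axis, with medians of 0.39 against 0.27 for higher and -0.38 against -0.28 for lower genes.

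The genes with the strongest genotype difference on each side are given next. After Shank2, the lowest by moderated t were Ccnd1 (cyclin D1, a driver of the cell cycle), Hs3st2 (a heparan sulfate sulfotransferase), Inf2 (an actin-nucleating formin), Rgcc and Rmnd1, whose interactions ranged from -0.16 to -0.04. Ccnd1 counts were 1237 to 1618 (WT-Veh), 1298 to 1354 (WT-Mem), 706 to 931 (KO-Veh) and 618 to 760 (KO-Mem). Its Veh-K/W was -0.75 and its Mem-K/W -0.92, with an interaction of -0.16 ± 0.17.

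The highest were Hrk (a BH3-only cell death activator), Pla2g4e, Etnppl (a phospholyase of astrocytes), Cirbp (a cold-inducible RNA-binding protein), Hira (a histone chaperone) and Itpr3. All but Itpr3 had estimates from -0.06 to 0.22. Itpr3, an IP3 receptor that releases calcium from the endoplasmic reticulum, had counts of 232, 268 and 245 (WT-Veh), 248, 227 and 223 (WT-Mem), 513, 404 and 504 (KO-Veh) and 359, 301 and 243 (KO-Mem). KO-Veh mice were above all others, and KO-Mem mice lay between them and the WT range, which KO-Mem replicate 3 reached. Its Veh-K/W was 0.92, its Mem-K/W 0.35 and its interaction -0.57 ± 0.20 (unadjusted p = 0.012, adjusted p = 0.947, limma). It was the 1 gene of 21 in the calcium and calcineurin list with an unadjusted p under 0.05. The study also picked out Itpr3 in these mice, so this hit is not independent of its comparisons.

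Of 42 genes listed from the study's text, 13 had an unadjusted p under 0.05, 4 higher and 9 lower, against 4.76% of all genes. The list is not complete, and mt-Nd1, which the study also names, is given above. They were picked from comparisons of these same mice, so the count is not independent evidence. Besides those described above they were Leng8 (0.36) on the higher side, and Slc6a3, the dopamine transporter (-0.44), Tnfrsf25 (-1.05), Cd151 (-0.29) and Tspan11 (-1.07) on the lower side. On chromosome 7, of 282 tested genes within 20 Mb of Shank2, 4 were higher and 4 lower at an unadjusted p under 0.05 (2.84%), below the 4.76% of all genes.

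The largest estimates of all came from genes listed at 0 in some mice. Of 76 genes with an absolute interaction over 2, 61 were listed at 0 in at least 1 mouse, against 121 of all 17655 genes tested, and 0 were called. Zxda, an X-linked zinc finger gene annotated as an unprocessed pseudogene in GENCODE M21, had the smallest p of all (7.5e-05, limma, unadjusted). Its counts were 88.4, 51.4 and 94.3 (WT-Veh), 0 in every WT-Mem mouse, 0, 58.1 and 60.6 (KO-Veh) and 55.3, 77.4 and 84.2 (KO-Mem). It was called without KO-Veh replicate 1, and Gm15429, a processed pseudogene listed at 0 in WT-Veh replicates 1 and 3 only, was called without WT-Veh replicate 2. Pseudogenes share sequence with their parent genes, between which reads can be divided differently from mouse to mouse. Whether this happened for Zxda or Gm15429 was not tested, and their values are uncertain.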

How the data were processed

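Gene-level values of 12 mice were used. Per the labels and methods, the authors estimated transcript abundance with Salmon 1.1.0, summed it to genes and normalized the counts with DESeq2 1.26.0 in R 3.6.2. The deposited values are therefore a signal, normalized counts on a linear scale, and whole reads could not be recovered, so no count test was run. The annotation release was not given in the sources used here. Symbols were matched to GENCODE M21 (GRCm38) for 19295 of 19312 genes.

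Values were analysed as log2(value + 1) with limma 3.58.1 in R 4.3.3 (lmFit, contrasts.fit, eBayes with trend), 1 mean per group and Benjamini-Hochberg adjustment, for genes with a mean of at least 10 over the mice. Fold changes on this scale understate the change of weakly expressed genes. An adjusted p under 0.05 was a call. Intervals use the moderated SE with a median of 14.2 degrees of freedom. Total depth is unknown. The relative depth ranged from 0.894 to 1.15, and 1 read was worth 0.872 to 1.13 units. The code was tested on simulated data.

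Named genes were Shank2, genes called in any fit, the 12 highest and 12 lowest of the interaction by moderated t, members of the lists with an unadjusted p under 0.05, NMDA receptor subunits, and the strongest genes for genotype. A few others (Gphn, Fos, Egr1, Npas4, Arc, Lss, Hsd17b7, Tm7sf2) were chosen after their values were seen. The comparison, its members and the gene lists were chosen with earlier results of these data known. Alternatives changed the pseudocount, filter, scaling, variance prior, sample weights and mice. Nothing in the labels links the replicate numbers of different groups, so mice were not paired in the main fit. Some genes that these rules name are not reported here.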

Additional observations from a re-analysis of the deposited data

How the results depend on the processing

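The number of genes called for the interaction was 0 with a pseudocount of 0.5 or 5, another filter or scaling, another variance prior, array weights or the replicate block, and ranged from 0 to 4 when each mouse was left out. The count at an unadjusted p under 0.05 was 840, from 594 to 1756 with a mouse left out, and 2354 with array weights, which ranged from 0.45 to 5.03 and gave most weight to KO-Mem replicate 2. Genotype calls numbered 670 with a variance prior without trend and 4467 with array weights, and from 524 to 3263 with a mouse left out. Memantine calls numbered 102 with array weights and from 0 to 119 with a mouse left out. Genes of the lists with an unadjusted p under 0.05 numbered 33, 128 with array weights, and from 21 to 106 with a mouse left out. The counts over all genes, given above as 840, 2354 and from 594 to 1756, moved in the same directions. In each of these ranges the upper end came without KO-Mem replicate 3, and the cause was not tested. The lowest count of list genes came without KO-Mem replicate 1. The genotype count was over 1.5 times lower without any of WT-Veh replicates 2 and 3, WT-Mem replicates 1 and 3, KO-Veh replicates 1 and 3 and KO-Mem replicates 1 and 2 (each alone). Leaving out a mouse was not run for the count of groups that stood apart.

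Estimates near 0 changed sign in 31 of 1604 gene values, 0 of them with an unadjusted p under 0.05 in limma. Grin2b was 0.017 with quantile normalization. With array weights Shank2 was -0.13, Grin2a -0.045, Rgcc 0.10 and Pla2g4e -0.0053. With a mouse left out the ranges were -0.059 to 0.069 for Shank2, -0.13 to 0.10 for Grin2a, -0.21 to 0.11 for Grin2b, -0.12 to 0.10 for Rgcc, -0.18 to 0.12 for Etnppl, -0.19 to 0.035 for Hs3st2 and -0.039 to 0.32 for Pla2g4e.

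With the replicate block, 0 genes were called for the interaction, 791 had an unadjusted p under 0.05 and 1728 were called for genotype, and no interaction call changed. Deviations of the 18 pairs of same-numbered mice of different groups correlated between -0.18 and 0.08, none over 0.1. These values show no sign of a pairing by number, but they cannot exclude one. Precision was lowest for genes with a mean under 50, few of which had a narrow interval.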

Other observations

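Genes of blood, meninges and vessels differed between groups in their summed levels. The 5 hemoglobin genes summed to 19447 to 26320 in WT-Veh, 13301 to 14809 in WT-Mem, 7567 to 18764 in KO-Veh and 5626 to 12528 in KO-Mem mice. By sum WT-Veh mice were thus above all others. By mean log2 deviation KO-Veh replicate 2 (0.562) was above WT-Veh replicate 3 (0.547). Limma called 4 of the 5 lower for genotype, against 5.73% of all genes, while 0 had an unadjusted interaction p under 0.05. The median interaction was -0.12, and ranged from -0.47 without KO-Mem replicate 3 to 0.23 without KO-Veh replicate 2. The 18 endothelial and mural markers summed to 19287 to 20512 in WT-Veh and 17809 to 19733 in WT-Mem mice. Their sums were 16713 to 17286 in KO-Veh and 16244 to 16948 in KO-Mem mice, so the KO groups overlapped. Of these markers 8 were called lower for genotype, and their median interaction was 0.12. The 12 meningeal fibroblast markers had 11 estimates below 0 and a median of -0.13, with sums of 7129 to 7544 in KO-Mem mice and 7585 to 9594 in the other 9. By mean log2 deviation KO-Mem replicate 3 (-0.063) was above WT-Mem replicates 1 (-0.070) and 2 (-0.143).

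The 14 choroid plexus and ependymal markers varied within groups, from 8270 to 15268 in KO-Mem mice, and 7 of 14 had an interval within 1 log2 unit (median -0.17). The 16 microglia markers summed to 10402 to 11808 in KO-Mem mice and 12081 to 14849 in the others. The groups were not so separated by mean log2 deviation. KO-Mem replicate 3 (0.004) was above WT-Veh replicate 1 (-0.015), KO-Veh replicate 1 (-0.008) and KO-Veh replicate 2 (-0.017). Siglech, a lectin of microglia, had an interaction of -0.52, the 1 microglia marker with an unadjusted p under 0.05 (limma, adjusted p = 0.947). The 16 astrocyte markers had a median of -0.04. The share of these cells in any of the gene values was not tested.

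Neuronal lists had medians from -0.09 to 0.07. Among 18 excitatory layer markers, Calb1, which encodes the calcium buffer calbindin, had -0.24, and the median was -0.06. The 16 interneuron markers (median -0.06), 12 striatal markers (0.07) and 22 presynaptic release genes (-0.09) held 0 genes with an unadjusted p under 0.05 in limma. Of 34 actin regulators, Wasf3 had 0.19 and Actg1, which encodes cytoplasmic gamma-actin, -0.25, with a median of -0.02. The 15 glucocorticoid responsive genes and 19 circadian clock genes held 0, with medians of 0.03 and 0.01. Medians of the 80 cytosolic and 78 mitochondrial ribosomal protein genes were 0.01 and -0.002.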
